A study of Mus musculus with 13 samples.

Results

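The effect of Apc loss on gene expression was compared between organoids and sorted intestinal stem cells (ISCs) of mice in which Cre is switched on in Lgr5-expressing crypt-base cells (ISC-Cre). The comparison used the 9 libraries of 4 groups, chosen by their titles out of 13 libraries in the series. In each material the ISC-Cre Apc-null group was set against a group labelled WT, giving an organoid effect and an ISC effect. The interaction is the organoid effect minus the ISC effect. Read counts per gene, both strands together, were fitted in 1 model with the edgeR quasi-likelihood test. Effects below are log2 fold changes ± standard error with p-values adjusted by Benjamini-Hochberg over all 14906 genes tested, a gene is "called" at an adjusted p under 0.05, and levels are CPM, counts scaled to a common library size. A positive interaction means that the organoid effect was the higher of the pair.

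All 9 libraries came from adult mice given 2 doses of 1 mg tamoxifen. The Apc-null organoids (2 libraries, 10 days) and Apc-null ISCs (3 libraries, 14 days) carried Lgr5eGFP-CreERT2, floxed Apc on both alleles and a Rosa26 tdTomato reporter. The WT organoids (2 libraries, 10 days) are labelled WT with no further allele, and the treatment labels give ileal crypts as the source of the organoids of both genotypes. An extraction protocol shared by the samples names the duodenum, so the region of the organoids rests on the treatment labels. The days given for organoids are those between tamoxifen and plating. The WT ISCs (2 libraries, 21 days) were ileal, carried floxed Apc with Lgr5DTR-GFP and the tdTomato reporter, and no Cre is named for them. The Apc-null ISCs were duodenal. Region, days after tamoxifen, the Lgr5 allele, the dissociation enzyme and the strandedness of the reads thus all differed between the ISC groups, and none of them can be told apart from Apc loss in the ISC effect or in the interaction. Whole organoids hold every epithelial cell type that grows in the culture, whereas the ISCs were isolated by flow cytometry. In these bulk libraries fewer cells of a type and less RNA per cell cannot be told apart. No label says whether replicates came from separate mice or cultures, so the p-values measure the spread between these libraries.

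Apc is the scaffold of the complex that marks beta-catenin for degradation, and without it beta-catenin and TCF/LEF factors keep Wnt target genes switched on. In the intestinal crypt, Wnt signals from the niche sustain Lgr5-positive stem cells, and cells that leave the crypt base lose this signal and mature into absorptive or secretory cells. Organoids receive niche factors from the medium and the matrix, whereas cells in the animal receive them from Paneth cells and stroma.

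Library totals ran over 17869369 and 20915624 counts in Apc-null organoids, 13631423 and 21306261 in WT organoids, 21580486 to 27336750 in Apc-null ISCs, and 15573041 and 18609373 in WT ISCs. Apc-null ISC replicate 3 stood apart from its group: chi-square per degree of freedom over genes was 221 and 268 against the other duodenal libraries, which differed from each other by 42.8, and its estimated weight in a weighted fit was 0.162. Where leaving it out moved a printed count of a gene list's calls in 1 material, or in the interaction, by over 1.5 times, the new count is given with that list. Shares over all genes given with a list are those of the fit of all 9 libraries. Calls over all genes grew too without this library. Then 2622 genes rose and 2457 fell in organoids, and 3175 rose and 2802 fell in ISCs. Positive interactions were called for 927 and negative ones for 1017 of 14749 genes, in place of 478 and 596. The 3 Apc-null ISC libraries were strand-specific, with 98.5% to 98.9% of stranded counts on 1 strand, whereas the other 6 had 48.4% to 49.7%, so levels of overlapping and antisense genes are uncertain in the ISC effect. Lgr5, Axin2 and Smoc2, markers of crypt-base cells, were at 67.7 CPM or more in all 5 ISC libraries. Olfm4, another crypt-base marker, was at 78.6, 115 and 93.4 CPM in Apc-null ISCs, against 3308 and 3980 CPM in WT ISCs. Such levels do not check the label ISC, since whole organoids held crypt-base genes at like levels. Summed over 35 crypt-base genes, levels came to 8430 and 12570 CPM in WT organoids, against 9228 and 9448 CPM in WT ISCs. The sums were 7424 and 7546 CPM in Apc-null organoids and 8974 to 11580 CPM in Apc-null ISCs. Markers of other epithelial cells were present in the sorted cells. Summed over 23 goblet genes, levels came to 1062 to 1683 CPM in Apc-null ISCs, against 17870 and 20160 CPM in WT ISCs, and over 22 Paneth genes to 9103 to 15470 CPM in Apc-null ISCs, against 27020 and 27190 CPM in WT ISCs, with 1 Paneth gene at 0 in each group. The part of other cells in the ISC effect was not tested.

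A large share of the transcriptome differed between the Apc-null and WT groups in both materials, and most genes called in both moved the same way. In organoids 3547 genes (23.8%) were called, 1881 higher and 1666 lower in Apc-null. In ISCs 5111 (34.3%) were called, 2828 higher and 2283 lower. A shared effect, called in both in the same direction, was found for 2163 genes (14.5%), which is 61% of the organoid calls and 42.3% of the ISC calls. Of these, 1243 (8.34%) were higher and 920 (6.17%) lower in both. Opposite calls were made for 135 genes (0.906%), 41 higher in Apc-null organoids and lower in Apc-null ISCs, and 94 the reverse. The interaction was called for 1074 genes (7.21%), and all 135 opposite genes were among them.

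The 1074 genes with different effects were made up mostly of genes that moved in 1 material. A call in the ISC effect alone accounted for 446 and a call in the organoid effect alone for 306, and 317 were called in both, 182 of them in the same direction with different sizes. Among the 596 genes with a negative interaction, 200 fell in organoids alone, 196 rose in ISCs alone and 94 did both. Among the 478 with a positive one, 250 fell in ISCs alone, 106 rose in organoids alone and 41 did both. Of the 1830 shared genes with counts in every group, 1237 (67.6%) had effects that differed by less than 1 log2 unit, with a median standard error of the difference of 0.463. Over the 14906 genes the effects had a Pearson r of 0.582 and a Spearman rho of 0.537, as a description across genes, which are not independent replicates. The arms share no library. The interaction count was 354 and 403 without Apc-null organoid replicates 1 and 2, 447 and 705 without WT organoid replicates 1 and 2, 672 and 1944 without Apc-null ISC replicates 1 and 3, and 617 and 449 without WT ISC replicates 1 and 2. The opposite count was 66, 64, 77, 80 and 254 without Apc-null organoid replicate 1, Apc-null organoid replicate 2, WT organoid replicate 1, WT ISC replicate 2 and Apc-null ISC replicate 3. Organoid calls numbered 1771, 1945 and 1995, and shared calls 1250, 1329 and 1420, without Apc-null organoid replicates 1 and 2 and WT organoid replicate 1; ISC calls numbered 3389 and 2632 without WT ISC replicates 1 and 2.

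**Figure D1:**
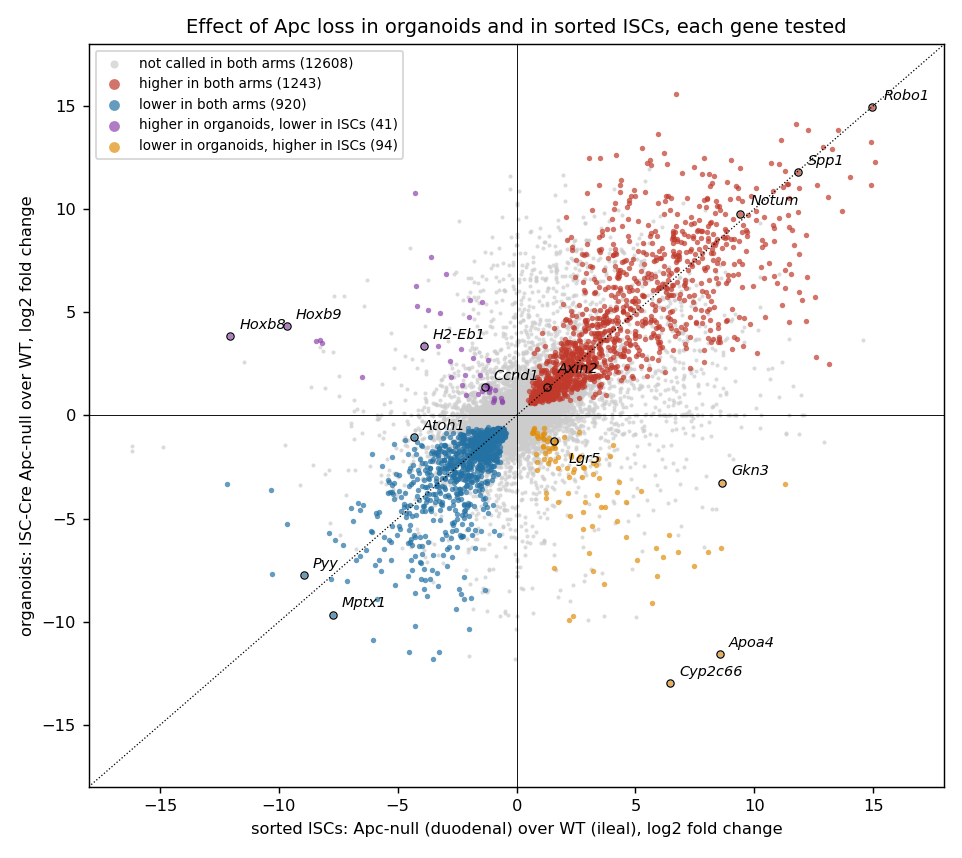
Log2 fold change of each tested gene in organoids (vertical axis, Apc-null over WT) against that in ISCs (horizontal axis, duodenal Apc-null over ileal WT), coloured by calls in both; the dotted line marks equal effects. The 1243 genes higher in both and the 920 lower in both lie around the dotted line, and the 135 opposite genes lie in the other quadrants; effects beyond about 10 belong mostly to genes at or near 0 counts in a group and depend on the prior count.

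Apc itself was read first, since it is the targeted gene. It was at 207 and 265 CPM in Apc-null organoids, against 172 and 152 CPM in WT organoids. Apc-null ISCs held 268, 187 and 514 CPM, against 125 and 137 CPM in WT ISCs. Apc-null levels were above WT levels in both materials and did not overlap them. The ISC effect was called at 1.30 ± 0.37 (adjusted p = 0.0222) and the organoid effect was not, at 0.54 ± 0.39 (adjusted p = 0.368). Apc lost its ISC call without WT ISC replicates 1 or 2 and with each material fitted alone (highest adjusted p = 0.112). A count summed over the whole gene does not check the floxed deletion, which removes a part of the gene.

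Wnt target genes rose together in both materials. Of 37 tested members of 39 listed, 22 rose and 1 fell in Apc-null organoids, 25 rose and 1 fell in Apc-null ISCs, and 20 rose in both. Of all genes tested, 12.6% rose in organoids, 19% in ISCs and 8.34% in both. The median effect was 1.38 in organoids and 1.68 in ISCs, against 0.0541 and 0.117 over all genes. The interaction was called for 4 of the 37 members, against 7.21% of all genes. The list had 24 rises and 2 falls in organoids and 5 interaction calls without Apc-null ISC replicate 3. Those that rose in both include feedback inhibitors of the pathway. Notum, a secreted enzyme that inactivates Wnt proteins, was at 684 and 433 CPM in Apc-null organoids, against 1.16 and 0.243 CPM in WT organoids, and at 752, 852 and 529.9 CPM in Apc-null ISCs, against 0.955 and 1.12 CPM in WT ISCs; its effects were 9.77 ± 0.61 (adjusted p = 1.69e-05) in organoids and 9.41 ± 0.59 (adjusted p = 8.09e-06) in ISCs, with an interaction of 0.36 ± 0.71 (adjusted p = 0.831). Reads of Notum share over 20% of their words with other genes, so its level is uncertain. Wif1, a secreted Wnt-binding inhibitor, was at 72 and 57.7 CPM in Apc-null organoids, against 0.0772 and 0.0486 CPM in WT organoids. Apc-null ISCs held 94, 97.2 and 63.8 CPM, against 0.477 and 0 CPM in WT ISCs. The WT libraries held almost no Wif1 in either material, and its interaction was 1.38 ± 1.35 (adjusted p = 0.613).

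Axin2, the negative regulator most often read as a Wnt reporter, was at 857 and 889.9 CPM in Apc-null organoids, against 244 and 430.1 CPM in WT organoids. Apc-null ISCs held 865, 769 and 832 CPM, against 363 and 314 CPM in WT ISCs. Its effect was nearly the same size in both, at 1.37 ± 0.26 (adjusted p = 0.00439) in organoids and 1.28 ± 0.25 (adjusted p = 0.00339) in ISCs, and the interaction was 0.09 ± 0.35 (adjusted p = 0.929). T (brachyury), a mesodermal transcription factor and Wnt target, had no count in any WT library and was at 1.75 and 5.03 CPM in Apc-null organoids and 11.9, 18.7 and 20.5 CPM in Apc-null ISCs, at least 37.9-fold and at least 185-fold higher against a floor of 3 counts over the WT group. Tnfrsf19, a TNF receptor family member of crypt-base cells, was at 293 and 312 CPM in Apc-null organoids, against 6.64 and 12 CPM in WT organoids. Apc-null ISCs held 403, 383 and 267 CPM, against 30.9 and 19.4 CPM in WT ISCs. It rose in both, by 5.01 ± 0.38 (adjusted p = 3.30e-05) in organoids and 3.81 ± 0.35 (adjusted p = 4.95e-05) in ISCs, and the interaction of 1.21 ± 0.44 (adjusted p = 0.141) was not called.

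**Figure D2:**
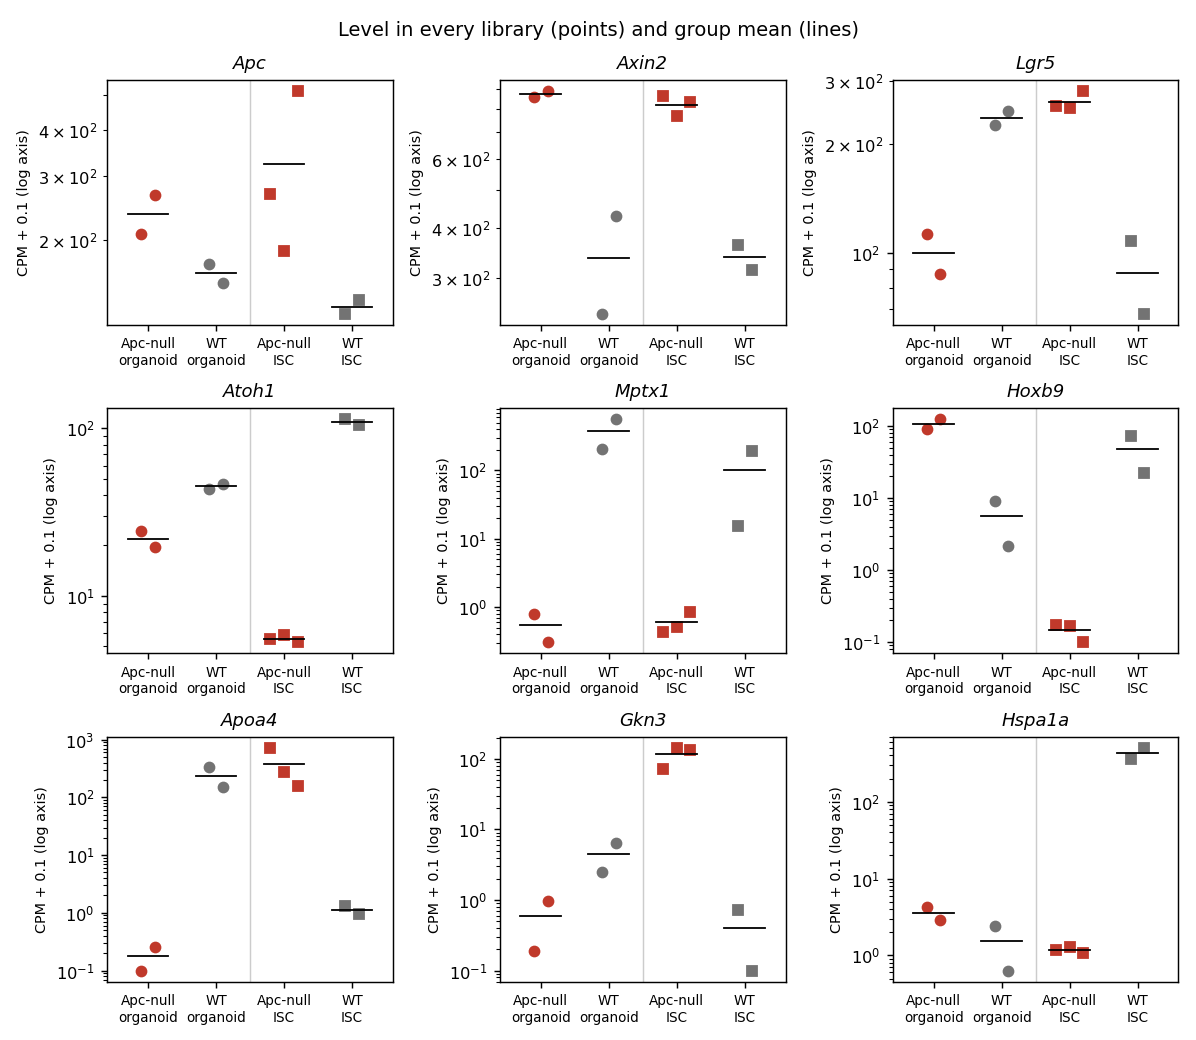
CPM of 9 genes in every library on log axes (points; lines are group means), Apc-null left of WT, organoids as circles and ISCs as squares. Axin2 and Mptx1 moved the same way in both materials; Lgr5, Hoxb9, Apoa4 and Gkn3 moved in opposite directions; Hspa1a differed between the ISC groups alone by the adjusted p.

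Promoter windows are shown for Wnt targets with a shared rise that hold the core letters bound by TCF/LEF factors, CTTTGAT, on either strand. RefSeq windows (GRCm38.p6, 250 bases before to 50 after a start) were found for 14 of the 20 genes, and 3 of the 14 (21.4%) held the core, against 349 of 11034 genes tested with a window (3.16%). The CDX letters TTTATNG were in more of them, 6 of the 14 (42.9%), against 8.81% of all genes. The AP-1 letters TGANTCA and the HNF4 letters CAAAGTC were each in 1 (7.14%), against 6.7% and 4.87%, and the TEAD letters GGAATG in 0, against 14.8%. A match describes the letters and is not a binding site shown here. The sequences run 5′ to 3′ along the gene's strand with the core, or its other-strand form ATCAAAG, in capitals. Tnfrsf19 is at chr14:61037938-61038237 on the minus strand with the core at -202, Sp5 at chr2:70474673-70474972 on the plus strand with the core at -104, and Mmp7 at chr9:7691840-7692139 on the plus strand with the core at 5, each counted from the annotated start of that window. For a gene with several windows, the first that held the searched letters is shown. The Tnfrsf19 window is at a start inside the gene, which spans chr14:60963875-61046490.
Tnfrsf19: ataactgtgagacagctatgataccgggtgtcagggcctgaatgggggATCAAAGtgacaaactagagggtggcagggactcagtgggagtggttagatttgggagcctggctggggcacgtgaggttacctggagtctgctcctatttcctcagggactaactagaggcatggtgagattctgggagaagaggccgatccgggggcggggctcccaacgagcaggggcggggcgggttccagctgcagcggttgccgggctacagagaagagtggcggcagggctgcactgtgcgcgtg
Sp5: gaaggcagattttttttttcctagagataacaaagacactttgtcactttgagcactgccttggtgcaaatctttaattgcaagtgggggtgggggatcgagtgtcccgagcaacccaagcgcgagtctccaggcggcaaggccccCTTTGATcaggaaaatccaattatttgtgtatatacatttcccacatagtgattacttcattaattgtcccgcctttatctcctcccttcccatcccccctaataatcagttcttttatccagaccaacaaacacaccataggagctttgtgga
Mmp7: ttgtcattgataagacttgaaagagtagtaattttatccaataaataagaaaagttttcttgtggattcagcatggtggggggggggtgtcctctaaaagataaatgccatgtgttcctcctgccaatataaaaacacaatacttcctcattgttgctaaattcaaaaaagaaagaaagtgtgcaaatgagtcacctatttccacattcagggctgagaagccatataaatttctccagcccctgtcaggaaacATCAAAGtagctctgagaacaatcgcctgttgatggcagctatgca
Sp5, a transcription factor induced by Wnt, was at 190.4 and 133 CPM in Apc-null organoids, against 11.4 and 30.1 CPM in WT organoids. Apc-null ISCs held 133, 133 and 197 CPM, against 15.9 and 22.5 CPM in WT ISCs. The matrix protease Mmp7, known from Paneth cells, was at 773 and 634 CPM in Apc-null organoids, against 299 and 324 CPM in WT organoids. Apc-null ISCs held 1168, 2195 and 2184 CPM, against 841 and 685 CPM in WT ISCs. The Apc-null libraries were above the WT libraries in both materials for both genes. Over all 1243 shared rises, 31 of 903 with a window (3.43%) held the core, and over the 920 shared falls 20 of 703 (2.84%).

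The largest shared rises were of genes with no or almost no counts in WT. No count was found in either WT group for 166 of the 1243. Robo1, a receptor for Slit guidance cues, was at 249 and 138 CPM in Apc-null organoids and 186, 139.7 and 265 CPM in Apc-null ISCs and had no count in any of the 4 WT libraries. It was at least 2162-fold higher in organoids and at least 2140-fold higher in ISCs. Sox17, an endodermal transcription factor and partner of beta-catenin, was at 71.6 and 48.3 CPM and 279, 192 and 89 CPM in the Apc-null groups with no WT count, at least 669.6-fold and at least 2028-fold higher. Cdh13, an anchored cadherin, Ptn, a secreted growth factor, and Spp1, the secreted phosphoprotein osteopontin, followed the same pattern, with bounds of 1014, 986 and 242 in organoids and 780.3, 332 and 242 in ISCs. Stra6, the receptor for retinol-binding protein, was at 284 and 270.5 CPM in Apc-null organoids, against 0 and 0.0486 CPM in WT organoids. Apc-null ISCs held 61.8, 54.2 and 65.8 CPM, against 0 and 0 CPM in WT ISCs. With both WT groups at 0, the interaction of Robo1, Sox17, Cdh13, Ptn and Spp1 carries no information on a difference. Their adjusted p in each effect held under every alternative tried.

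Fetal and regenerative epithelial genes, which are active in the fetal gut and after injury, also rose in both. Of 36 tested of 40 listed, 26 rose and 3 fell in organoids, 25 rose and 3 fell in ISCs, and 21 rose in both. The medians were 2.81 and 3.03. Over all genes tested, 12.6% rose and 11.2% fell in organoids, 19% rose and 15.3% fell in ISCs, and 8.34% rose in both. Anxa8, an annexin, was at 18 and 20.7 CPM in Apc-null organoids and 1.56, 1.07 and 3.27 CPM in Apc-null ISCs with no count in any WT library, at least 216-fold higher in organoids and at least 21.3-fold higher in ISCs. Krt17, a stress-inducible keratin, had no WT count either, with bounds of 279 in organoids and 44.3 in ISCs. Clu (clusterin), a marker of revival stem cells after injury, rose in both but more in ISCs: it was at 417 and 340.0 CPM in Apc-null organoids, against 13.7 and 60.7 CPM in WT organoids. Apc-null ISCs held 1407, 2149 and 3986 CPM, against 2.80 and 3.91 CPM in WT ISCs. Its interaction was -6.20 ± 0.93 (adjusted p = 0.00431). Ly6a (Sca-1), another injury marker, rose in 1 material alone, at 152 and 255 CPM in Apc-null organoids, against 10.3 and 2.19 CPM in WT organoids. Apc-null ISCs held 3.04, 5.94 and 12.9 CPM, against 5.93 and 24.8 CPM in WT ISCs. The organoid effect was 5.06 ± 0.95 (adjusted p = 0.00416), the ISC groups overlapped with an effect of -1.09 ± 0.74 (adjusted p = 0.277), and the interaction was 6.15 ± 1.17 (adjusted p = 0.0145). Ly6a lost its interaction call without Apc-null organoid replicate 2, WT organoid replicate 2 or WT ISC replicate 2 (highest adjusted p = 0.0583). Ly6a shares over 20% of its words with related genes and is uncertain. Without Apc-null ISC replicate 3 the list had 6 falls in organoids, and 4 positive and 7 negative interactions in place of 1 and 6. With all 9 libraries, 3.21% of all genes had a positive interaction and 4% a negative one.

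Genes best known from stroma and endothelium rose in both as well. Of 15 tested of 19 listed, 7 rose in organoids and 8 in ISCs, all 7 among the 8. The shares over all genes that rose were 12.6% in organoids, 19% in ISCs and 8.34% in both. The list summed to 743 and 986 CPM in Apc-null organoids, against 17.4 and 21.7 CPM in WT organoids, and to 680 to 892 CPM in Apc-null ISCs, against 22.6 and 26.0 CPM in WT ISCs. The sum was carried mainly by Vim (vimentin, an intermediate filament), named for this after its values were seen, at 578 and 768 CPM in Apc-null organoids, against 11 and 13 CPM in WT organoids. Apc-null ISCs held 663, 597 and 346 CPM, against 11.1 and 15.1 CPM in WT ISCs. Of the 19 markers, 3 were at 0 in Apc-null organoids, against 12 in WT organoids, and 10 were at 0 in WT ISCs. Cdh5, the endothelial cadherin, had no WT count and was at 25.4 and 11.4 CPM in Apc-null organoids and 77.8, 71.8 and 159 CPM in Apc-null ISCs. Col4a1, a basement membrane collagen, was at 60.5 and 109 CPM in Apc-null organoids, against 0.232 and 0.243 CPM in WT organoids. Apc-null ISCs held 75, 39 and 86.2 CPM, against 0.0682 and 0 CPM in WT ISCs. Of other markers named after their values were seen, the fibroblast collagens Col1a1 and Col3a1 stood at no more than 1.24 CPM in Apc-null organoids and at 21.9 and 4.39 CPM in Apc-null ISC replicate 2, against 0.109 CPM or less in the other Apc-null ISC libraries, and Pecam1, an endothelial adhesion molecule, at no more than 0.622 CPM in any Apc-null library. Among BMP pathway genes, 11 of 20 tested rose in organoids, 10 rose and 1 fell in ISCs, and 8 rose in both. Msx1, a homeobox factor induced by BMP, was at 4.55 and 16.9 CPM in Apc-null organoids, against 0.386 and 0.0972 CPM in WT organoids. Apc-null ISCs held 35.3, 24.8 and 16.1 CPM, against 0 and 0 CPM in WT ISCs. Fst (follistatin), an antagonist, was at 10.4 and 8.71 CPM in Apc-null organoids, against 0.464 and 0.34 CPM in WT organoids. Apc-null ISCs held 4.78, 4.15 and 10.8 CPM, against 0.205 and 0.447 CPM in WT ISCs. For both genes the Apc-null libraries were above the WT libraries in both materials. The BMP list had 4 positive interactions in place of 2 without Apc-null ISC replicate 3. A positive interaction was called for 3.21% of all genes with all 9 libraries. The part of stromal cells in these rises was not tested.

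Goblet and enteroendocrine genes, of mature secretory cells, fell in both. The largest shared falls named by the rule include Mptx1, a mucosal pentraxin of Paneth cells, at 0.701 and 0.207 CPM in Apc-null organoids, against 206 and 558 CPM in WT organoids. Apc-null ISCs held 0.326, 0.415 and 0.75 CPM, against 15.4 and 189 CPM in WT ISCs. Its effects were -9.65 ± 1.31 (adjusted p = 0.000687) in organoids and -7.73 ± 1.03 (adjusted p = 0.000415) in ISCs, and over 20% of its words occur in other genes. Pyy, the hormone peptide YY, was at 0.0438 and 0.155 CPM in Apc-null organoids, against 27.4 and 16.1 CPM in WT organoids, and at 0.0362, 0.0691 and 0 CPM in Apc-null ISCs, against 16.4 and 28.8 CPM in WT ISCs, with effects of -7.73 ± 0.74 (adjusted p = 9.75e-05) in organoids and -8.96 ± 0.66 (adjusted p = 1.83e-05) in ISCs. Of 36 enteroendocrine genes tested, 22 fell in organoids, 29 in ISCs and 21 in both (medians -3.02 and -3.22), against 11.2%, 15.3% and 6.17% of all genes. Of 22 goblet genes tested, 13 fell in organoids, 18 in ISCs and the same 13 in both. Fcgbp, a mucus component, was at 289.6 and 169 CPM in Apc-null organoids, against 3051 and 3326 CPM in WT organoids. Apc-null ISCs held 249, 168 and 312 CPM, against 8023 and 9749 CPM in WT ISCs. Slc5a8, a monocarboxylate transporter, had effects of -6.48 ± 0.50 (adjusted p = 3.44e-05) in organoids and -5.59 ± 0.39 (adjusted p = 1.36e-05) in ISCs. Gcg, the precursor of glucagon-like peptides, was at 13.5 and 0.363 CPM in Apc-null organoids, against 299.7 and 239 CPM in WT organoids. Apc-null ISCs held 0.145, 0 and 0.375 CPM, against 113 and 139 CPM in WT ISCs. All Apc-null libraries lay below the WT libraries for these genes.

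The goblet genes fell further in ISCs: the median effect was -1.63 in organoids and -3.27 in ISCs (-1.78 in organoids with genes at 0 set to their bound), and 8 of 22 had a positive interaction and 1 a negative one, against 3.21% and 4% of all genes. There were 12 positive ones without Apc-null ISC replicate 3. Atoh1, the transcription factor that commits cells to the secretory lineage, was at 24.2 and 19.4 CPM in Apc-null organoids, against 43.6 and 46.3 CPM in WT organoids. Apc-null ISCs held 5.40, 5.77 and 5.20 CPM, against 113 and 105 CPM in WT ISCs. All groups were separate, and the effect was -1.04 ± 0.21 (adjusted p = 0.00607) in organoids and -4.32 ± 0.20 (adjusted p = 3.49e-06) in ISCs, a difference of 3.27 ± 0.29 (adjusted p = 0.000356). Atoh1 lost its organoid call without Apc-null organoid replicate 2 (highest adjusted p = 0.0679). Guca2a (guanylin), a peptide that regulates fluid secretion, fell in both, with effects of -2.48 ± 0.26 (adjusted p = 0.000157) in organoids and -5.66 ± 0.25 (adjusted p = 3.49e-06) in ISCs, a difference of 3.19 ± 0.34 (adjusted p = 0.000818). Sytl2, a vesicle transport protein, had an ISC effect of -3.05 ± 0.20 (adjusted p = 1.12e-05), an organoid effect of -0.17 ± 0.22 (adjusted p = 0.652) and an interaction of 2.88 ± 0.30 (adjusted p = 0.000765). Zg16, a lectin of the mucus, had the 1 negative interaction in the list, at -3.10 ± 0.66 (adjusted p = 0.0223). Zg16 lost its interaction call without WT organoid replicates 1 or 2 or WT ISC replicates 1 or 2 and in a fit of all 13 libraries (highest adjusted p = 0.083). The goblet genes were highest in the WT ISCs, as given above, and the part of goblet cells carried in the sort was not tested. Fewer Paneth and tuft cell genes were called lower in both, 3 of 21 Paneth and 2 of 27 tuft genes, against 6.17% of all genes. Their medians were below 0 in both materials, at -0.675 in organoids and -1.7 in ISCs for Paneth genes. For tuft genes they were -2.72 and -1.61. Summed over 22 Paneth genes, levels were 5527 and 7968 CPM in Apc-null organoids, against 8996 and 10690 CPM in WT organoids. Over 29 tuft genes they were 1479 and 1872 CPM, against 1049 and 1146 CPM. Of 21 Paneth genes tested, 2 rose and 5 fell in organoids and 2 rose and 8 fell in ISCs, and of 27 tuft genes, 2 rose and 10 fell in organoids and 2 rose and 7 fell in ISCs. Of all genes tested, 12.6% rose and 11.2% fell in organoids, and 19% rose and 15.3% fell in ISCs. The rises in these lists were thus no more frequent than over all genes, whereas the falls were more frequent. In organoids 8 Paneth and 15 tuft genes fell without Apc-null ISC replicate 3. Of 27 unfolded protein response genes, which secretory cells use heavily, 14 fell in ISCs, against 15.3% of all genes, while the 4 that fell in organoids were a share near that of all genes (11.2%). Without that library 7 fell in organoids.

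**Figure D3:**
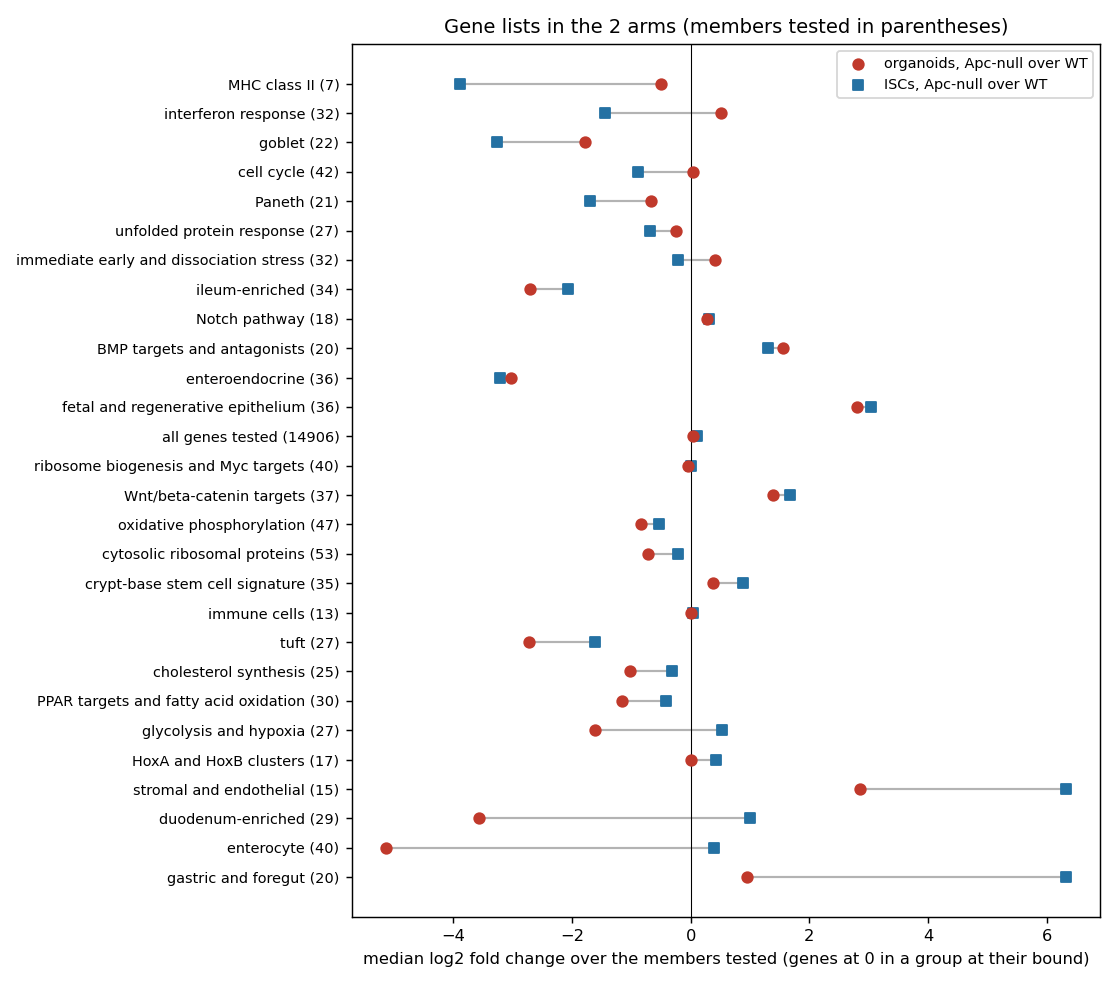
Median log2 fold change over the tested members of each gene list in organoids (red circles) and in ISCs (blue squares), sorted by the median interaction, with genes at 0 counts in a group set to their bound. Wnt targets, fetal, BMP and enteroendocrine genes had medians close together in the 2 materials, whereas the enterocyte, duodenum-enriched and glycolysis lists were below 0 in organoids and above 0 in ISCs.

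Crypt-base stem cell genes did not move as 1 group. Of 35 tested of 36 listed, 9 rose and 8 fell in organoids, 18 rose and 3 fell in ISCs, 9 rose in both and 3 fell in both; 1 had a positive and 6 a negative interaction. Without Apc-null ISC replicate 3 there were 2 positive and 11 negative ones, and 13 rose in organoids. Among all genes tested, 12.6% rose and 11.2% fell in organoids, and 19% rose and 15.3% fell in ISCs. Shared rises made up 8.34% of them, shared falls 6.17%, positive interactions 3.21% and negative ones 4%. Lgr5, the receptor for R-spondins that marks crypt-base stem cells, was at 112 and 87.1 CPM in Apc-null organoids, against 226 and 247 CPM in WT organoids. Apc-null ISCs held 255, 251 and 281 CPM, against 108 and 67.7 CPM in WT ISCs. It fell in Apc-null organoids, with an effect of -1.24 ± 0.25 (adjusted p = 0.00537), and rose in Apc-null ISCs, with an effect of 1.58 ± 0.23 (adjusted p = 0.000787). The groups did not overlap in either, and the interaction was -2.83 ± 0.34 (adjusted p = 0.00149). Lgr5 lost its organoid call without Apc-null organoid replicate 2 (highest adjusted p = 0.0541). The Apc-null groups carry a Lgr5eGFP-CreERT2 allele, the WT ISCs a Lgr5DTR-GFP allele and the WT organoids neither by their labels, and the part of these alleles in the counts was not tested. Lgr5 lies at chr10:115450311-115587780 of GRCm38.

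Olfm4, a secreted glycoprotein of crypt-base cells that depends on Notch signals, was at 119 and 48 CPM in Apc-null organoids, against 1762 and 5079 CPM in WT organoids. Apc-null ISCs held 78.6, 115 and 93.4 CPM, against 3308 and 3980 CPM in WT ISCs. It fell in both, with effects of -5.36 ± 0.59 (adjusted p = 0.000208) in organoids and -5.25 ± 0.50 (adjusted p = 5.91e-05) in ISCs and an interaction of -0.10 ± 0.67 (adjusted p = 0.973). Gkn3 (gastrokine 3), listed as a stem cell gene and also known from the stomach, was at 0.0876 and 0.881 CPM in Apc-null organoids, against 2.40 and 6.42 CPM in WT organoids. Apc-null ISCs held 71, 143 and 132 CPM, against 0.614 and 0 CPM in WT ISCs. Its effects were -3.26 ± 0.91 (adjusted p = 0.0273) in organoids and 8.64 ± 1.03 (adjusted p = 0.000228) in ISCs, and the interaction -11.90 ± 1.36 (adjusted p = 0.00117) held under every alternative. Gkn3 lost its organoid call without Apc-null organoid replicate 1 or WT organoid replicate 2, by DESeq2, in a fit of all 13 libraries and with voom and library weights (highest adjusted p = 0.188). Nrn1 (neuritin), a small anchored protein, was at 1.01 and 0.0518 CPM in Apc-null organoids, against 19.2 and 27.6 CPM in WT organoids, and at 137, 142 and 161 CPM in Apc-null ISCs, against 19.98 and 13.1 CPM in WT ISCs; the groups separated in both, with an interaction of -8.53 ± 0.81 (adjusted p = 0.000485). More than 20% of the Nrn1 words occur in other genes. Fstl1, a secreted follistatin-like protein, rose in both, at 4.82 and 3.11 CPM in Apc-null organoids, against 0.309 and 0.34 CPM in WT organoids, and at 62.8, 59.2 and 63.4 CPM in Apc-null ISCs, against 0.341 and 0 CPM in WT ISCs, with an interaction of -4.99 ± 0.99 (adjusted p = 0.0175). Fstl1 lost its interaction call without Apc-null organoid replicate 2 or WT organoid replicates 1 or 2 (highest adjusted p = 0.0928).

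Enterocyte genes, the genes of the absorptive cells, fell in organoids and split in ISCs. Of 40 tested, 36 fell in Apc-null organoids, whereas 14 rose and 10 fell in Apc-null ISCs. The median effect was -5.13 in organoids and 0.391 in ISCs, and 29 of 40 had a negative interaction, against 4% of all genes; 10 fell in both and 11 fell in organoids and rose in ISCs. Without Apc-null ISC replicate 3, 36 fell in organoids, 17 rose and 10 fell in ISCs, and 32 had a negative interaction. The shares over all genes were 11.2% for organoid falls, 19% for ISC rises and 15.3% for ISC falls. The list summed to 1119 and 1176 CPM in Apc-null organoids, against 8800 and 11290 CPM in WT organoids, and to 3374 to 5306 CPM in Apc-null ISCs, against 4926 and 5126 CPM in WT ISCs.

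Apoa4, an apolipoprotein of chylomicrons, was at 0 and 0.155 CPM in Apc-null organoids, against 329 and 148 CPM in WT organoids. Apc-null ISCs held 722, 274 and 156 CPM, against 1.23 and 0.838 CPM in WT ISCs. The organoid groups and the ISC groups were both far apart and in opposite order, with effects of -11.58 ± 1.15 (adjusted p = 0.000117) and 8.54 ± 0.91 (adjusted p = 0.000117) and an interaction of -20.13 ± 1.46 (adjusted p = 0.000141). Over 20% of its words occur in other transcripts, so the level is uncertain. Creb3l3, a transcription factor of lipid metabolism in enterocytes and liver, was at 0.175 and 0.207 CPM in Apc-null organoids, against 24.3 and 25.9 CPM in WT organoids, and at 35.5, 23.7 and 11 CPM in Apc-null ISCs, against 0.273 and 1.06 CPM in WT ISCs, with an interaction of -12.08 ± 1.03 (adjusted p = 0.000336). Apoa1, another apolipoprotein, was at 0.438 and 0.259 CPM in Apc-null organoids, against 300.1 and 303 CPM in WT organoids. Apc-null ISCs held 461, 211 and 95.5 CPM, against 64.1 and 33.9 CPM in WT ISCs. Alpi, the brush border alkaline phosphatase, was at 0 and 0.104 CPM in Apc-null organoids, against 61 and 44.7 CPM in WT organoids. Apc-null ISCs held 151, 69.8 and 41.9 CPM, against 16.8 and 20.9 CPM in WT ISCs. Both fell in organoids, with effects of -9.71 ± 0.89 (adjusted p = 8.34e-05) and -9.94 ± 0.93 (adjusted p = 9.04e-05), and their interactions were -12.10 ± 1.06 (adjusted p = 0.000356) and -12.15 ± 1.07 (adjusted p = 0.000356). Apoa1 lost its ISC call without WT ISC replicate 2 (highest adjusted p = 0.0976). Alpi lost its ISC call without WT ISC replicates 1 or 2 (highest adjusted p = 0.0665). The enterocyte list shares members with the regional lists given below. Apoa4 and Creb3l3 are also in the duodenum-enriched list and Apoa1 in the ileum-enriched list, and the ISC effect sets duodenal against ileal cells.

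Sis fell in organoids, and its organoid effect was far below its ISC effect by the interaction. Sis (sucrase-isomaltase), a brush border disaccharidase, was at 5.17 and 4.04 CPM in Apc-null organoids, against 2188 and 1230 CPM in WT organoids. Apc-null ISCs held 193, 88.8 and 152 CPM, against 166 and 199 CPM in WT ISCs. The ISC groups overlapped, with an effect of -0.33 ± 0.33 (adjusted p = 0.465), whereas the organoid effect was -8.53 ± 0.51 (adjusted p = 1.69e-05) and the interaction -8.20 ± 0.59 (adjusted p = 0.000136). Lrat, which esterifies retinol, was 1 of the 10 that fell in both, with effects of -4.09 ± 0.70 (adjusted p = 0.00252) in organoids and -4.09 ± 0.59 (adjusted p = 0.000657) in ISCs.

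**Figure D4:**
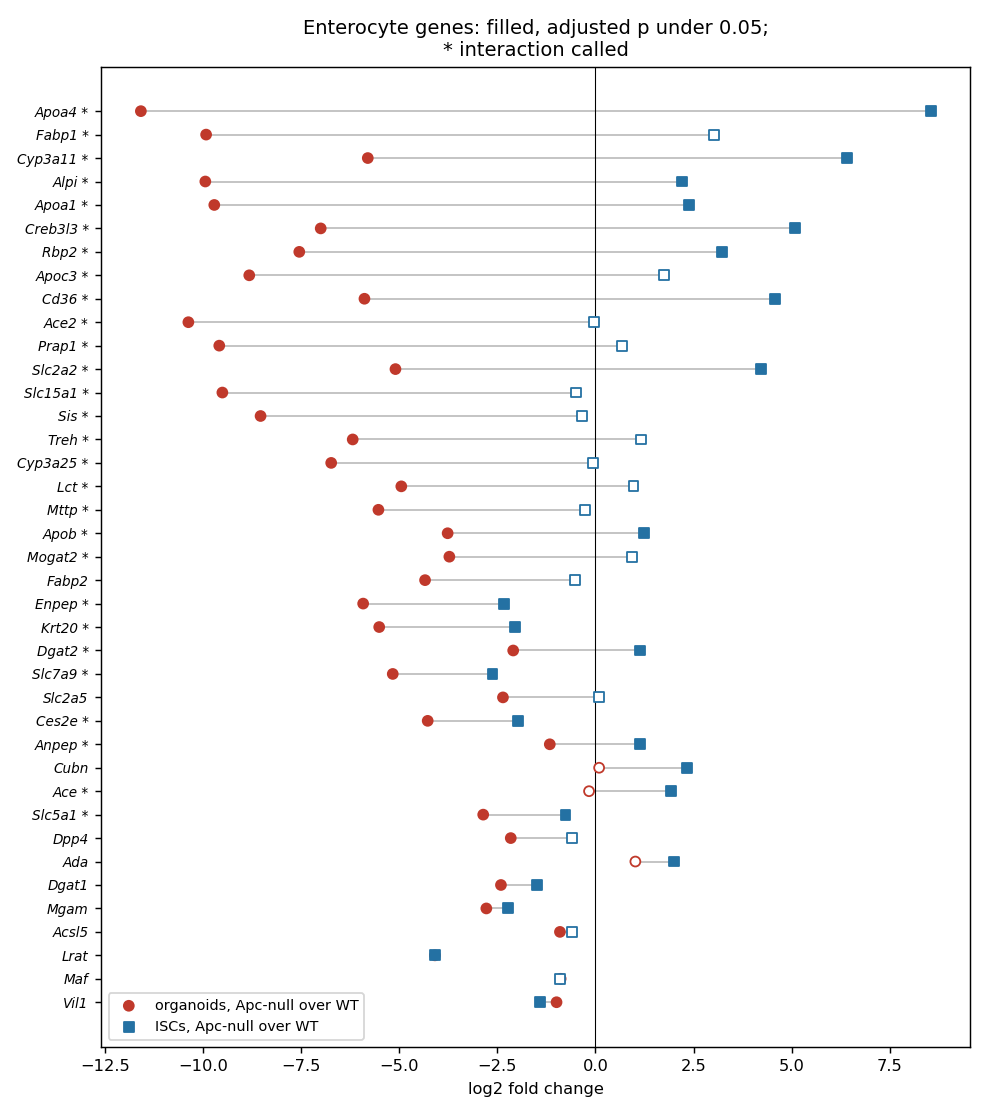
Log2 fold change of 39 of the 40 tested enterocyte genes in organoids (red circles) and ISCs (blue squares), Apc-null over WT, sorted by the interaction; filled symbols are called and an asterisk marks a called interaction. The organoid values lie left of 0 for 37 of the 39 genes, whereas the ISC values lie on both sides.

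Promoter windows of opposite genes are shown as the counterpart of the Wnt targets, for the genes with the largest opposite effects that hold any of the searched letters: AP-1 TGANTCA, TEAD GGAATG, HNF4 CAAAGTC and CDX TTTATNG, on both strands. Apoa4 (chr9:46240594-46240893, plus strand) held the TEAD letters in their other-strand form CATTCC at -21, and Cyp2c66 (chr19:39113648-39113947, plus strand) the HNF4 letters at -104, in capitals.
Apoa4: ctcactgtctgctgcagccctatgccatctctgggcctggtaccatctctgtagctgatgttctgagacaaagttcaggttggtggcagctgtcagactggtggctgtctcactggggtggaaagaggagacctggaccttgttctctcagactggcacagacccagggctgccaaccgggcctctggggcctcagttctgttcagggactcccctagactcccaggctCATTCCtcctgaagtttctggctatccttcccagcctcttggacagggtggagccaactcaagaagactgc
Cyp2c66: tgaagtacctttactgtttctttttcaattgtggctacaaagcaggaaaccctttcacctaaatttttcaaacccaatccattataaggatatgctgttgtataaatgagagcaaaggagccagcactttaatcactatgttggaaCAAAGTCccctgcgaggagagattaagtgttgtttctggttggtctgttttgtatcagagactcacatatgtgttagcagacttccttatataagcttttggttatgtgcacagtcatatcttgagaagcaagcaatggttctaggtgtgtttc
Cyp2c66, a cytochrome P450, had no count in Apc-null organoids, against 40.1 and 59.6 CPM in WT organoids, and stood at 0.652, 0.38 and 0.589 CPM in Apc-null ISCs with no count in WT ISCs. It was at least 699.9-fold lower in Apc-null organoids and at least 5.87-fold higher in Apc-null ISCs, and over 20% of its words occur in other genes. Among the 94 genes lower in organoids and higher in ISCs, 74 had a window, and 18 of these (24.3%) held the TEAD letters, against 14.8% of all genes with a window. The CDX letters were in 13 (17.6%), against 8.81%, the AP-1 letters in 10 (13.5%), against 6.7%, and the HNF4 letters in 7 (9.46%), against 4.87%. Shares above those of all genes for these 4 motifs were not particular to this set. In shared rises and shared falls, TEAD was at 17.6% and 17.2% and CDX at 9.3% and 10.2%. AP-1 was at 7.97% and 8.68% and HNF4 at 5.54% and 6.83%. Of 29 reverse opposite genes with a window, 13.8% held AP-1, 13.8% TEAD, 3.45% HNF4 and 3.45% CDX. The TCF/LEF core was in 1 (1.35%), against 3.16%.

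Genes that mark position along the gut are given next because the ISC groups came from different regions. Of 29 duodenum-enriched genes tested, 20 fell in organoids, where both genotypes are labelled ileal, whereas 12 rose and 8 fell in ISCs; 15 had a negative interaction and 1 a positive one. Gata4, a transcription factor of the proximal intestine, named after its values were seen, was at 28.9 and 20.3 CPM in Apc-null organoids, against 91.7 and 93.6 CPM in WT organoids. Apc-null ISCs held 166, 145 and 212 CPM, against 18.6 and 52.8 CPM in WT ISCs. Of 34 ileum-enriched genes tested, 6 rose and 18 fell in organoids and 3 rose and 20 fell in ISCs, with 9 positive and 4 negative interactions. Over all genes tested, 12.6% rose and 11.2% fell in organoids, and 19% rose and 15.3% fell in ISCs. A positive interaction was called for 3.21% of them and a negative one for 4%. Fabp6, the ileal bile acid binding protein, also named after its values were seen, was at 0 and 0.311 CPM in Apc-null organoids, against 1.08 and 2.48 CPM in WT organoids, and at 0.254, 0.207 and 0.161 CPM in Apc-null ISCs, against 394 and 171 CPM in WT ISCs, low in every organoid library. Nr1h4, the bile acid receptor FXR, fell in both, with effects of -3.57 ± 0.55 (adjusted p = 0.00135) in organoids and -2.37 ± 0.44 (adjusted p = 0.00282) in ISCs. Dropping every gene of the 3 regional lists (duodenum, ileum and Hox) from the finished results left 1038 genes with a called interaction. The other genes were not fitted or adjusted again, so this count does not test the part of region in them.

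The order of Hox genes along the chromosome follows their order along the body axis, and 7 of 17 tested HoxA and HoxB genes were called in opposite directions. Of the 17, 7 rose and 3 fell in organoids and 5 rose and 6 fell in ISCs. Of these, 6 were higher in Apc-null organoids and lower in Apc-null ISCs, and 1 the reverse. Among all genes tested, 12.6% rose and 11.2% fell in organoids, 19% rose and 15.3% fell in ISCs, and 0.906% had opposite calls. Hoxb9, at chr11:96271457-96276595, was at 92.4 and 124 CPM in Apc-null organoids, against 8.88 and 2.04 CPM in WT organoids. Apc-null ISCs held 0.0725, 0.0691 and 0 CPM, against 73.4 and 22.6 CPM in WT ISCs. The Apc-null ISCs, which are duodenal, held almost none, and its effects were 4.34 ± 0.73 (adjusted p = 0.00221) in organoids and -9.67 ± 0.91 (adjusted p = 5.74e-05) in ISCs. Hoxb8 had no count in Apc-null ISCs, against 38.6 and 13.1 CPM in WT ISCs, at least 648-fold lower, and was at 61.5 and 83 CPM in Apc-null organoids, against 8.73 and 1.65 CPM in WT organoids. Hoxb8 lost its organoid call without Apc-null organoid replicate 2 (highest adjusted p = 0.053). Hoxb7 was at 25.7 and 25.8 CPM in Apc-null organoids, against 2.47 and 1.60 CPM in WT organoids. Apc-null ISCs held 0.0362, 0.0691 and 0 CPM, against 17.6 and 10.6 CPM in WT ISCs. Hoxb6 was at 58.1 and 55.8 CPM in Apc-null organoids, against 7.11 and 3.01 CPM in WT organoids. Apc-null ISCs held 0.0725, 0.0691 and 0.161 CPM, against 45.3 and 13.5 CPM in WT ISCs. Hoxb7 and Hoxb6 followed Hoxb9, and their interactions were 11.94 ± 0.81 (adjusted p = 0.00011) and 11.70 ± 0.96 (adjusted p = 0.000268).

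The rise of HoxB genes in organoids compares material labelled ileal on both sides. Hoxb5 to Hoxb9 were all 5 higher in both Apc-null libraries than in both WT libraries. Of the HoxA genes, named after their values were seen, Hoxa5 was at 0.175 and 0 CPM in Apc-null organoids, against 2.94 and 0.729 CPM in WT organoids, and at 13, 16.1 and 27.1 CPM in Apc-null ISCs, against 0.409 and 1.12 CPM in WT ISCs, and Hoxa9 and Hoxa10 had no count in any organoid library and stood at 9.49, 9.85 and 8.30 CPM and 3.84, 2.80 and 3.75 CPM in Apc-null ISCs. In the organoids of the series in which Cre is driven by Atoh1, the secretory lineage factor (Sec-Cre), the effects of Hoxb9, Hoxb8, Hoxb7 and Hoxb6 against the same WT organoids were -2.66 (adjusted p = 0.114), -2.36 (adjusted p = 0.102), -2.22 (adjusted p = 0.0379) and -1.26 (adjusted p = 0.354) in a fit of all 13 libraries. These values share their WT libraries with the ISC-Cre ones, and the difference between the drivers was not tested here.

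**Figure D5:**
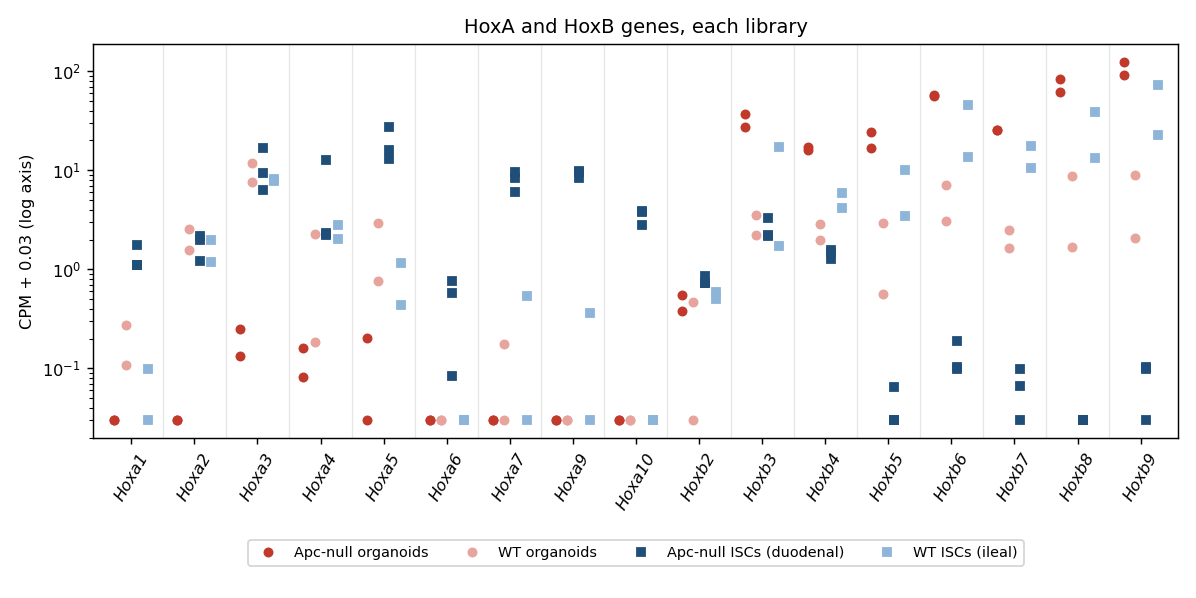
CPM of the 17 tested HoxA and HoxB genes in every library (log axis; circles organoids, squares ISCs, dark Apc-null, light WT). Hoxb5 to Hoxb9 are high in Apc-null organoids and at or near 0 in duodenal Apc-null ISCs, while Hoxa7, Hoxa9 and Hoxa10 are present in Apc-null ISCs and at or near 0 in the other groups.

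Some genes rose in organoids with no rise in ISCs. Pxdn (peroxidasin), which crosslinks basement membrane collagen, was at 252 and 159 CPM in Apc-null organoids, against 0.85 and 0.632 CPM in WT organoids. Apc-null ISCs held 30.8, 21.1 and 30.8 CPM, against 52.2 and 39.5 CPM in WT ISCs. Its organoid effect was 8.13 ± 0.42 (adjusted p = 8.46e-06), its ISC effect -0.73 ± 0.26 (adjusted p = 0.0519) and its interaction 8.87 ± 0.47 (adjusted p = 3.34e-05). Wnt6, a Wnt ligand, rose in both but more in organoids, with 376 and 218 CPM in Apc-null organoids and no count in WT organoids, at least 3318-fold higher, and 93, 78.7 and 34.1 CPM in Apc-null ISCs, against 0.886 and 0.447 CPM in WT ISCs. Wnt6 lost its interaction call without Apc-null organoid replicate 1, WT organoid replicates 1 or 2 or WT ISC replicate 1 and with voom and library weights (highest adjusted p = 0.102). Ccnd1 (cyclin D1), a Wnt target that drives entry into the cell cycle, was at 735 and 751 CPM in Apc-null organoids, against 299 and 272 CPM in WT organoids. Apc-null ISCs held 149, 201 and 139 CPM, against 367 and 463 CPM in WT ISCs. It rose in organoids and fell in ISCs, with effects of 1.38 ± 0.23 (adjusted p = 0.00223) and -1.35 ± 0.21 (adjusted p = 0.000925), no overlap in either and an interaction of 2.73 ± 0.31 (adjusted p = 0.00116); over 20% of its words occur in other genes.

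Cell cycle genes fell in ISCs and not as a group in organoids. Of 42 tested, 27 fell in Apc-null ISCs, and 1, Ccnd1, rose in Apc-null organoids; the medians were 0.0474 in organoids and -0.887 in ISCs. A positive interaction was called for 11 of 42, and for 23 without Apc-null ISC replicate 3, when 3 rose in organoids. The shares over all genes were 12.6% for organoid rises, 15.3% for ISC falls and 3.21% for positive interactions. Without that library, 927 of 14749 genes had a positive interaction. Cdc20, an activator of the anaphase complex, was at 124 and 110.0 CPM in Apc-null organoids, against 116 and 124 CPM in WT organoids. Apc-null ISCs held 49.7, 53.4 and 43.1 CPM, against 177 and 179 CPM in WT ISCs. Ccnb1, the mitotic cyclin B1, was at 105 and 127 CPM in Apc-null organoids, against 111 and 108 CPM in WT organoids. Apc-null ISCs held 24.7, 26.1 and 34.9 CPM, against 94.9 and 83.6 CPM in WT ISCs. Both overlapped between the organoid genotypes and were separate in ISCs, with interactions of 1.83 ± 0.25 (adjusted p = 0.00246) and 1.72 ± 0.30 (adjusted p = 0.00858). Cdc20 lost its interaction call in a fit of all 13 libraries (highest adjusted p = 0.0683). Ccnb1 lost its interaction call in a fit of all 13 libraries (highest adjusted p = 0.101). Reads of both share over 20% of their words with other genes. Notch pathway genes did not move as a group. Of 18 tested, 1 rose and 3 fell in organoids, and 4 rose and 5 fell in ISCs. The medians were 0.371 and 0.304. Without Apc-null ISC replicate 3, 3 rose in organoids. Of all genes, 11.2% fell in organoids and 19% rose in ISCs. Nrarp, a Notch target and feedback inhibitor, fell in both, with effects of -1.64 ± 0.30 (adjusted p = 0.00339) in organoids and -4.31 ± 0.28 (adjusted p = 1.04e-05) in ISCs. The difference was 2.67 ± 0.40 (adjusted p = 0.00415), and its words too are shared by over 20%.

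MHC class II genes, which present antigen, were highest in WT ISCs. All 7 MHC class II genes tested fell in Apc-null ISCs, and 2 rose and 2 fell in organoids, where 3 rose without Apc-null ISC replicate 3. H2-Eb1, a class II beta chain, was at 5.39 and 2.69 CPM in Apc-null organoids, against 0.541 and 0.292 CPM in WT organoids. Apc-null ISCs held 8.08, 18.1 and 41.9 CPM, against 314 and 358 CPM in WT ISCs. Ciita, the transcription factor that switches class II genes on, was at 0.569 and 0.726 CPM in Apc-null organoids, against 0.232 and 0 CPM in WT organoids. Apc-null ISCs held 1.52, 3.14 and 3.75 CPM, against 49 and 67.9 CPM in WT ISCs. Their interactions were 7.24 ± 1.02 (adjusted p = 0.00321) and 7.10 ± 1.03 (adjusted p = 0.00364). H2-Eb1 lost its organoid call without Apc-null organoid replicate 1 or WT organoid replicates 1 or 2 and with voom and library weights (highest adjusted p = 0.145). Cd74, the invariant chain, was at 50.02 and 30.9 CPM in Apc-null organoids, against 2.32 and 0.438 CPM in WT organoids, and at 30.8, 66.8 and 274 CPM in Apc-null ISCs, against 1057 and 1263 CPM in WT ISCs, with an interaction of 8.21 ± 1.33 (adjusted p = 0.00653). Cd74 lost its organoid call without WT organoid replicate 2 (highest adjusted p = 0.067). Of 32 interferon response genes tested, 18 fell in ISCs, and 5 rose and 5 fell in organoids, with a positive interaction for 9. Of all genes 15.3% fell in ISCs and 3.21% had a positive interaction, whereas the organoid counts were near the 12.6% and 11.2% of all genes that rose and fell there. Bst2 (tetherin), an interferon-induced membrane protein, was at 27.6 and 18.5 CPM in Apc-null organoids, against 13.1 and 7.05 CPM in WT organoids. Apc-null ISCs held 6.27, 5.70 and 4.66 CPM, against 15.2 and 47.4 CPM in WT ISCs. Bst2 lost its interaction call without Apc-null organoid replicate 1 or WT organoid replicate 2 (highest adjusted p = 0.0743). Immune cell markers summed over 17 genes to 34.4 to 40.2 CPM in Apc-null ISCs, against 75.4 and 87.5 CPM in WT ISCs, and their part in these values was not tested.

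Stress genes were called in both directions. Of 32 immediate early and dissociation stress genes tested, 8 rose and 3 fell in organoids and 7 rose and 10 fell in ISCs. There were 8 positive interactions and no negative one, or 3 negative ones without Apc-null ISC replicate 3. Among all genes tested, 12.6% rose and 11.2% fell in organoids, 19% rose and 15.3% fell in ISCs, and 3.21% had a positive interaction. The organoid falls and the ISC rises in the list were near those shares. Of the 4 that rose in both, Egr3, an immediate early transcription factor, was at 1.14 and 1.24 CPM in Apc-null organoids with no count in WT organoids, at least 13.3-fold higher, and at 79.3, 58.7 and 25 CPM in Apc-null ISCs, against 3.00 and 4.58 CPM in WT ISCs, an effect of 3.83 ± 0.53 (adjusted p = 0.000778). Fosl1, a subunit of AP-1, was at 0.92 and 1.35 CPM in Apc-null organoids with no count in WT organoids, at least 12.7-fold higher, and had an ISC effect of 2.48 ± 0.74 (adjusted p = 0.0295). Fosl1 lost its ISC call without Apc-null organoid replicates 1 or 2, WT ISC replicates 1 or 2 or Apc-null ISC replicates 1 or 2. Over 20% of the Fosl1 words occur in other genes. The inducible heat-shock genes Hspa1a and Hspa1b were far higher in WT ISCs than in any other group. Hspa1a, an inducible Hsp70 chaperone, was at 4.16 and 2.80 CPM in Apc-null organoids, against 2.32 and 0.535 CPM in WT organoids, and at 1.09, 1.18 and 0.964 CPM in Apc-null ISCs, against 362 and 503 CPM in WT ISCs, with an interaction of 10.03 ± 0.68 (adjusted p = 0.00011). Hspa1b, its near-identical neighbour, was at 29 and 26.7 CPM in Apc-null organoids, against 8.81 and 6.47 CPM in WT organoids, and at 7.68, 7.05 and 7.66 CPM in Apc-null ISCs, against 601 and 765 CPM in WT ISCs, with an interaction of 8.39 ± 0.32 (adjusted p = 2.78e-06), and reads of this pair cannot be told apart with certainty. Dnajb1, a co-chaperone, fell in ISCs, with an effect of -1.60 ± 0.21 (adjusted p = 0.000419) and an interaction of 2.00 ± 0.32 (adjusted p = 0.00609). Hspb1, a small heat-shock protein, instead rose in both, at 34.6 and 30.9 CPM in Apc-null organoids, against 0.386 and 0.632 CPM in WT organoids, and at 5.62, 5.46 and 4.77 CPM in Apc-null ISCs, against 0.545 and 0.559 CPM in WT ISCs, and over 20% of its words occur in other genes. Hspb1 lost its interaction call without Apc-null organoid replicates 1 or 2, WT organoid replicate 1 or WT ISC replicates 1 or 2 and with voom and library weights (highest adjusted p = 0.114). Fos, an immediate early gene named after its values were seen, was at 424 to 939 CPM in all 5 ISC libraries and at 5.30 to 27.4 CPM in the 4 organoid libraries. The dissociation enzyme differed between the ISC groups, and its part in these values was not tested.

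Glycolysis and hypoxia genes fell in organoids and not as a group in ISCs. Of 27 glycolysis and hypoxia genes tested, 18 fell in organoids, and 7 rose and 3 fell in ISCs. There were 16 negative interactions, and the medians were -1.61 in organoids and 0.529 in ISCs. Without Apc-null ISC replicate 3, 10 rose in ISCs. Over all genes tested, 12.6% rose and 11.2% fell in organoids, 19% rose and 15.3% fell in ISCs, and 4% had a negative interaction. Egln3, an oxygen-sensing hydroxylase induced in hypoxia, was at 20.6 and 52 CPM in Apc-null organoids, against 448 and 151 CPM in WT organoids, and at 37.1, 44.2 and 34.7 CPM in Apc-null ISCs, against 3.68 and 3.24 CPM in WT ISCs, with an interaction of -6.53 ± 0.76 (adjusted p = 0.00128). Aldoc, a glycolytic aldolase, was at 35.2 and 47.1 CPM in Apc-null organoids, against 164 and 56.9 CPM in WT organoids, and at 104, 123 and 97.5 CPM in Apc-null ISCs, against 5.73 and 7.38 CPM in WT ISCs, with an interaction of -5.47 ± 0.60 (adjusted p = 0.000968). Aldoc lost its organoid call without Apc-null organoid replicates 1 or 2 or WT organoid replicate 1 (highest adjusted p = 0.358). Of 30 genes of PPAR targets and fatty acid oxidation, 19 fell and 1 rose in organoids, 5 rose and 11 fell in ISCs, and 6 had a negative interaction, while 8 rose in ISCs and 17 had a negative interaction without Apc-null ISC replicate 3. Pparg, a nuclear receptor of fatty acid metabolism, was at 7.58 and 8.50 CPM in Apc-null organoids, against 47.9 and 33 CPM in WT organoids. Apc-null ISCs held 25.1, 26.9 and 47.7 CPM, against 12.1 and 14.6 CPM in WT ISCs. It fell in organoids and rose in ISCs, with effects of -2.33 ± 0.37 (adjusted p = 0.00172) and 1.31 ± 0.34 (adjusted p = 0.0143) and an interaction of -3.64 ± 0.50 (adjusted p = 0.00278). Pparg lost its ISC call without WT ISC replicates 1 or 2 and in a fit of all 13 libraries (highest adjusted p = 0.0937). Pdk4, a kinase that restrains pyruvate oxidation, rose in both, with effects of 5.79 ± 0.68 (adjusted p = 0.000283) in organoids and 5.32 ± 0.57 (adjusted p = 0.000119) in ISCs.

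Oxidative phosphorylation subunits fell in both materials by small amounts: 37 of 47 fell in organoids, 24 in ISCs and 22 in both, with medians of -0.837 and -0.526. Of all genes 11.2% fell in organoids, 15.3% in ISCs and 6.17% in both. No interaction was called in the list, but without Apc-null ISC replicate 3 there were 6 negative ones, and 41 fell in organoids. Cyc1, a subunit of complex III, was at 149.7 and 150.4 CPM in Apc-null organoids, against 288 and 302 CPM in WT organoids. Apc-null ISCs held 195, 224 and 120.4 CPM, against 410.0 and 449 CPM in WT ISCs. Cyc1 lost its organoid call without Apc-null organoid replicates 1 or 2 or WT organoid replicates 1 or 2 (highest adjusted p = 0.136). Cholesterol synthesis genes fell too, 19 of 25 in organoids, 9 in ISCs and the same 9 in both. Stard4, a sterol carrier protein, had effects of -1.33 ± 0.22 (adjusted p = 0.00221) in organoids and -1.04 ± 0.20 (adjusted p = 0.00334) in ISCs. The list had 11 negative interactions in place of 3 without Apc-null ISC replicate 3. Negative interactions made up 4% of all genes with all 9 libraries, and 1017 of 14749 genes without that library. Of 53 cytosolic ribosomal protein genes, 26 fell and 1 rose in organoids and 11 fell and 2 rose in ISCs, and without Apc-null ISC replicate 3, 41 fell in organoids, 6 rose in ISCs and 18 had a negative interaction in place of 4. Reads of ribosomal protein genes can be shared with processed pseudogenes, so these counts are uncertain.

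Gastric genes rose mostly in Apc-null ISCs. Of 20 tested of 21 listed, 18 rose in ISCs, 7 rose and 1 fell in organoids, and 7 rose in both. Over all genes tested, 19% rose in ISCs, 12.6% rose and 11.2% fell in organoids, and 8.34% rose in both. Muc6, a mucin of gastric and duodenal glands, was at 17.2 and 10.6 CPM in Apc-null organoids with no count in WT organoids, and at 451, 436 and 2513 CPM in Apc-null ISCs, against 0.0682 and 0 CPM in WT ISCs. Ctse (cathepsin E), an aspartic protease of the stomach, was at 13 and 14 CPM in Apc-null organoids with no count in WT organoids, at least 151-fold higher, and at 346, 409 and 692 CPM in Apc-null ISCs, against 0.682 and 0.894 CPM in WT ISCs, an effect of 9.23 ± 0.47 (adjusted p = 6.39e-06). Onecut2, a transcription factor of the foregut and duodenum, was at 5.08 and 12.8 CPM in Apc-null organoids, against 16.5 and 15.2 CPM in WT organoids. Apc-null ISCs held 188, 128 and 257 CPM, against 0.818 and 1.96 CPM in WT ISCs. It rose in ISCs by 7.07 ± 0.59 (adjusted p = 3.24e-05), its organoid effect was -0.83 ± 0.46 (adjusted p = 0.237) and the interaction -7.91 ± 0.73 (adjusted p = 0.000415). Pgc, the precursor of the gastric protease pepsin C, was at 0.657 and 0.57 CPM in Apc-null organoids, against 0 and 0.535 CPM in WT organoids, and at 26.7, 17.7 and 29.4 CPM in Apc-null ISCs with no count in WT ISCs, at least 267-fold higher. Pgc lost its interaction call without WT organoid replicate 2 (highest adjusted p = 1.00).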

How the data were processed

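RNA sequencing counts per gene were deposited by the authors as 1 table per library, with both-strand, first-strand and second-strand columns. The submitters' processing notes name STAR, DESeq2 1.22.2 and mm10, which is GRCm38; the settings are not given in the sources used here. The both-strand counts were used as deposited. Of 24054 genes, 14906 passed filterByExpr (minimum count 10) and entered 1 edgeR 4.0.16 quasi-likelihood fit of the 9 libraries (R 4.3.3, limma 3.58.1) with TMM scaling, group means, no covariate and Benjamini-Hochberg adjustment at 0.05. Standard errors are the size of the log2 fold change over the square root of F. A fold against a group with no counts is a lower bound from a floor of 3 counts over the group, and such floors cover counting error only. The share of a gene's 31-base words that occur in other genes marks possible cross-counting above 20%.

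Named genes are Apc, Lgr5, Atoh1 and Axin2, the 8 largest shared changes each way, the 6 largest opposite changes of each pattern, the 8 largest interactions each way and up to 3 genes per list for shared and for different effects, without predicted, mitochondrial, sex-linked or lowly expressed genes outside the lists. Fewer are described in the text, mainly those whose calls held. Members, lists and rules were chosen with earlier results of these data known. The alternatives were other scalings, no filter, DESeq2 1.42.0, all 13 libraries, a replicate block, voom with library weights, second-strand counts for the duodenal libraries, each material fitted alone and leaving out each library. The fit was tested on simulated data with 200 changed genes. Symbols were matched to GENCODE and RefSeq annotation, and 136 genes had no match. The kit is non-directional per the labels, which differs from the strand shares found in 3 libraries. Some genes that met the naming rule are left out of the text.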

Additional observations from a re-analysis of the deposited data

Results flagged for a closer look

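The interaction term tests whether the difference between Apc-null and WT in organoids differed from that in ISCs. It was called for 1074 genes by edgeR. Region, days after tamoxifen, the Lgr5 allele, the dissociation enzyme and the strandedness of the reads also differed between the ISC groups. None of them can be told apart from Apc loss in these values. Each value below is an interaction, the log2 organoid effect minus the log2 ISC effect, for a gene named by the rule. Values above about 10 in size mostly come from genes at or near 0 counts in a group and depend on the prior count.

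For 34 genes the call held under every alternative run. The positive ones were Atoh1 3.27, Hoxb9 14.01, Hoxb8 15.87, Hoxb7 11.94, Hoxb6 11.70, H2-Eb1 7.24, Cd74 8.21, Hspa1a 10.03, Pxdn 8.87, Ccnd1 2.73, Guca2a 3.19, Sytl2 2.88, Sct 3.96, Nrarp 2.67, Hspa1b 8.39, Dnajb1 2.00 and Ciita 7.10. The negative ones were Lgr5 -2.83, Apoa4 -20.13, Cyp2c66 -19.46, Creb3l3 -12.08, Mt2 -7.97, Myl9 -14.65, Alpi -12.15, Apoa1 -12.10, Nrn1 -8.53, Gkn3 -11.90, Clu -6.20, Sis -8.20, Pparg -3.64, Aldoc -5.47, Egln3 -6.53, Adm -5.97 and Onecut2 -7.91. Of these, Apoa4, Cyp2c66, Mt2, Hspa1a, Ccnd1, Nrn1, Nrarp and Hspa1b share over 20% of their 31-base words with other genes and are uncertain.

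For the other 31 genes at least 1 alternative took the call away. Cyp3a11 -12.22 (highest adjusted p = 0.086) lost it without Apc-null organoid replicates 1 or 2 or WT ISC replicate 2. Gsta1 -8.13 (highest adjusted p = 0.0648) and Fabp1 -12.93 (highest adjusted p = 0.089) lost it without Apc-null organoid replicates 1 or 2. Cryab 8.95 (highest adjusted p = 1.00) lost it without Apc-null organoid replicates 1 or 2, WT organoid replicates 1 or 2 or WT ISC replicate 2. Wnt6 8.86 (highest adjusted p = 0.102) lost it without Apc-null organoid replicate 1, WT organoid replicates 1 or 2 or WT ISC replicate 1 and with voom and library weights. Fstl1 -4.99 (highest adjusted p = 0.0928) lost it without Apc-null organoid replicate 2 or WT organoid replicates 1 or 2. Emp1 -2.67 (highest adjusted p = 0.0719) lost it without Apc-null organoid replicate 1, WT organoid replicate 1 or WT ISC replicate 2. Ly6a 6.15 (highest adjusted p = 0.0583) lost it without Apc-null organoid replicate 2, WT organoid replicate 2 or WT ISC replicate 2. Slc7a9 -2.54 (highest adjusted p = 0.183) lost it without Apc-null organoid replicates 1 or 2, WT organoid replicates 1 or 2, WT ISC replicates 1 or 2 or Apc-null ISC replicates 1 or 2 and with upper quartile scaling. Enpep -3.58 (highest adjusted p = 0.0621) and Hadh -1.60 (highest adjusted p = 0.0566) lost it without Apc-null organoid replicate 2 or WT ISC replicate 2. Defa5 5.68 (highest adjusted p = 0.121) lost it without Apc-null organoid replicates 1 or 2, WT organoid replicates 1 or 2, WT ISC replicates 1 or 2 or Apc-null ISC replicate 1 and in a fit of all 13 libraries. Ang4 2.50 (highest adjusted p = 0.385) lost it without Apc-null organoid replicates 1 or 2, WT organoid replicates 1 or 2, WT ISC replicates 1 or 2 or Apc-null ISC replicate 2, with upper quartile scaling and in a fit of all 13 libraries. Zg16 -3.10 (highest adjusted p = 0.083) lost it without WT organoid replicates 1 or 2 or WT ISC replicates 1 or 2 and in a fit of all 13 libraries. Ccl6 1.85 (highest adjusted p = 0.437) lost it without Apc-null organoid replicate 1, WT organoid replicate 1 or WT ISC replicates 1 or 2 and in a fit of all 13 libraries. Nts 3.16 (highest adjusted p = 0.0819) lost it without Apc-null organoid replicate 1, WT organoid replicate 2 or WT ISC replicate 2. Isl1 4.40 (highest adjusted p = 0.173) lost it without Apc-null organoid replicates 1 or 2, WT organoid replicates 1 or 2, WT ISC replicates 1 or 2 or Apc-null ISC replicate 2, with upper quartile scaling, in a fit of all 13 libraries and with the replicate block. Cdc20 1.83 (highest adjusted p = 0.0683), Ccnb1 1.72 (highest adjusted p = 0.101) and Rpl12 -1.87 (highest adjusted p = 0.0531) lost it in a fit of all 13 libraries. Jag1 1.95 (highest adjusted p = 0.137) lost it without Apc-null organoid replicates 1 or 2, WT organoid replicates 1 or 2, WT ISC replicates 1 or 2 or Apc-null ISC replicate 1. Idi1 1.72 (highest adjusted p = 0.284) lost it without Apc-null organoid replicate 2, WT organoid replicate 1 or WT ISC replicate 2 and in a fit of all 13 libraries. Msmo1 -1.57 (highest adjusted p = 0.109) lost it without Apc-null organoid replicate 1, WT organoid replicate 1 or WT ISC replicates 1 or 2. Fdft1 -1.23 (highest adjusted p = 0.192) and Rpl23 -1.26 (highest adjusted p = 0.239) lost it without Apc-null organoid replicates 1 or 2, WT organoid replicates 1 or 2 or WT ISC replicates 1 or 2 and in a fit of all 13 libraries. Hspb1 2.71 (highest adjusted p = 0.114) lost it without Apc-null organoid replicates 1 or 2, WT organoid replicate 1 or WT ISC replicates 1 or 2 and with voom and library weights. Irf1 1.71 (highest adjusted p = 0.106) lost it without Apc-null organoid replicate 1, WT organoid replicate 1 or WT ISC replicate 2 and in a fit of all 13 libraries. Bst2 3.70 (highest adjusted p = 0.0743) lost it without Apc-null organoid replicate 1 or WT organoid replicate 2. Psmb9 1.99 (highest adjusted p = 0.117) lost it without Apc-null organoid replicates 1 or 2, WT organoid replicates 1 or 2, WT ISC replicate 2 or Apc-null ISC replicate 1 and with voom and library weights. Rpl32 -1.34 (highest adjusted p = 0.202) lost it without Apc-null organoid replicates 1 or 2, WT organoid replicates 1 or 2 or WT ISC replicate 2 and in a fit of all 13 libraries. Pgc -10.96 (highest adjusted p = 1.00) lost it without WT organoid replicate 2.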

How the results depend on the processing

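The counts of genes called in organoids, in ISCs, in both in the same direction, in opposite directions and in the interaction stayed within 1.5 times of the reported ones except as follows. The interaction was called for 2018 genes by DESeq2 and 2189 with voom and library weights, and the opposite count was 206 by DESeq2, 258 with voom and library weights and 209 with the replicate block. With the replicate block the interaction count was 1600. Fitting each material alone gave 5325 organoid calls. Leaving out 1 library at a time gave 1771 to 5079 organoid calls, 2632 to 5977 ISC calls, 1250 to 2932 shared calls, 354 to 1944 interaction calls and 64 to 254 opposite calls. Of the 1074 interaction calls, 1071 were also called without Apc-null ISC replicate 3 and 743 in the fit of all 13 libraries. Deviations of same-numbered libraries from their group means correlated between -0.0845 and 0.0374. In a group of 2 libraries the deviations mirror each other, so these values do not settle whether the replicate numbers pair the libraries. Of 273 values of named genes, 189 kept their call under every alternative run and 84 lost it under at least 1. The organoid effect of Myl9, a myosin light chain, changed sign: it was 0.21 without WT organoid replicate 1, and its leave-one-out values ran from -4.30 to 0.21; the cause was not tested. Scaling by RLE or upper quartile moved the median of all genes by no more than 0.052. With 2 libraries in 3 of the 4 groups, genes with few counts have wide errors, and a missing call is no sign of equal effects.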
